A study of Mus musculus with 12 samples.

Results

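The genes described here make cholesterol and fatty acids, control the SREBP transcription factors, or export cholesterol from the cell. A list of 35 mouse genes was used, and 30 of them had a probe set with their symbol on the array, 1 probe set each, out of 22206 gene probe sets tested. The 30 comprised 6 of 7 mevalonate pathway genes, 10 of 11 genes of the sterol branch, 5 of 6 SREBP regulators, 5 of 6 fatty acid synthesis genes and 4 of 5 genes of cholesterol efflux and its control by LXR. Acat2, Tm7sf2, Srebf1, Scd2 and Nr1h2 had no probe set named for them and were not analysed here.

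The cells were mouse HoxB8-ER cells, progenitors of granulocytes and macrophages that an estrogen-dependent HoxB8 protein keeps immature and that differentiate when estrogen is removed. Every group had been transduced with a pair of retroviral vectors, MSCV-IRES-GFP and MSCV-IRES-mCherry, and sorted for both fluorescent proteins. In the empty vector group neither vector carried an insert. The CSF3R_T618I group carried the activated human G-CSF receptor beside 1 empty vector, the CEBPA_V314VW group carried human C/EBPα with the C-terminal mutation beside 1 empty vector, and the group called both carried the 2 mutant genes together. After 1 week of recovery the cells were washed and kept for 24 h without estrogen in medium with serum and stem cell factor. There were 3 arrays per group, replicates A to C, and nothing in the sample descriptions said that they came from separate transductions, so the p-values measure only the spread between these arrays. A single progenitor line overexpressing human genes from a retroviral promoter is the limit of the model.

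Cholesterol is built from acetyl-CoA. The mevalonate pathway makes farnesyl diphosphate, and the sterol branch joins it into squalene, closes the rings to lanosterol and trims lanosterol to cholesterol. When sterols are scarce, SCAP carries SREBP from the endoplasmic reticulum to the Golgi, where it is cut and released to switch on the synthesis genes; when sterols are plentiful, the INSIG proteins hold it back. Oxysterols activate the LXR receptors, which turn on the exporters ABCA1 and ABCG1 and the ubiquitin ligase encoded by Mylip, which marks lipoprotein receptors for degradation. Synthesis and efflux genes are therefore known to be switched by sterols in opposite directions.

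The values were log2 probe set levels. Array medians ran from 6.59 to 6.76, correlations between arrays of the same group from 0.987 to 0.995, and the means of the background controls from 4.98 to 5.27. Replicate C of CSF3R_T618I and replicate C of both had the highest background means, 5.25 and 5.27, and low quality weights, 0.325 and 0.486. Calls of members that were lost or gained without these 2 arrays are given both ways. Mpo, Elane, Prtn3 and Ctsg, whose proteins fill the primary granules of granulocyte progenitors, had means of 12.15 or higher in every group. The 11 granulocyte and progenitor markers counted did not stay level. Against empty vector, S100a8 (2.64) and S100a9 (2.39) rose and Kit (-1.67) and Cd34 (-1.37) fell with CSF3R_T618I, and 6 of the 11 fell with CEBPA_V314VW, Elane (-1.02), Cebpe, Camp (-0.58), Ltf (-1.79), S100a8 (-2.39) and S100a9 (-2.36), all as log2 changes. With both, S100a8 (2.15) and S100a9 (2.12) rose and Camp (-0.60), Ltf (-1.52), Kit and Cd34 (-1.58) fell. Of all probe sets 3.74% were higher and 2.63% lower with CSF3R_T618I, and 1.02% and 0.95% with CEBPA_V314VW. With both the shares were 3.16% and 2.3%. The part of these marker shifts in the member results below was not tested.

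The 300-base windows around the transcription starts (250 bases before to 50 after) were read from RefSeq, build GRCm38.p6, and 24 of the 30 measured members had one. Fdps, Fdft1, Sqle, Stard4, Scd1 and Abcg1 had none and were not searched. Where a gene had several starts, the first listed was used. The windows below are those of some of the members that passed a comparison, Hmgcs1 (chr13:119690101-119690400, plus strand), Mvd (chr8:122443373-122443672, minus strand), Sc5d (chr9:42264251-42264550, minus strand), Abca1 (chr4:53159846-53160145, minus strand) and Mylip (chr13:45389492-45389791, plus strand). They are written 5′ to 3′ on the strand of the gene. Capitals mark 4 motifs on either strand: TCACNCCAC, a form of the sterol regulatory element; TCACGTGA, an E-box form that SREBP1 can bind; CCAAT, the NF-Y box (ATTGG when read on the other strand); and GGGCGG, the GC box of SP1 (CCGCCC on the other strand).
Hmgcs1: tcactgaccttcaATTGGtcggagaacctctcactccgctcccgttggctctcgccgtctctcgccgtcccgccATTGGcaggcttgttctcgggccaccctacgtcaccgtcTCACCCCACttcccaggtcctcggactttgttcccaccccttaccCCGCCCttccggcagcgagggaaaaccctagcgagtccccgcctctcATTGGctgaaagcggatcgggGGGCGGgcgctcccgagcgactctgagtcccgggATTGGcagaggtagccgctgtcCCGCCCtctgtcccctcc
Mvd: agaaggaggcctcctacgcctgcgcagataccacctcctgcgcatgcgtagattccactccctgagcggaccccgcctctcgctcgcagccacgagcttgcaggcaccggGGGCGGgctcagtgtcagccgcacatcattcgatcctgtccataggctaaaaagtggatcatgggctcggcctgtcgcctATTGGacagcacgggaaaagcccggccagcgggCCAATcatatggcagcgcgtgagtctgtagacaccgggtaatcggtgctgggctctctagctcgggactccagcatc
Sc5d: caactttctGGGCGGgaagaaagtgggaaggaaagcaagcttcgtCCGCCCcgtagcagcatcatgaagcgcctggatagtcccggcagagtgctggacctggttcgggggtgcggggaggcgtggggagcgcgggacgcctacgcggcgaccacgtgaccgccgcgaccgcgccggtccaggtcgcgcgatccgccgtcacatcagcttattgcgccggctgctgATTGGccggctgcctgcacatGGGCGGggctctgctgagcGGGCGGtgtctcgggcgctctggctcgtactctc
Abca1: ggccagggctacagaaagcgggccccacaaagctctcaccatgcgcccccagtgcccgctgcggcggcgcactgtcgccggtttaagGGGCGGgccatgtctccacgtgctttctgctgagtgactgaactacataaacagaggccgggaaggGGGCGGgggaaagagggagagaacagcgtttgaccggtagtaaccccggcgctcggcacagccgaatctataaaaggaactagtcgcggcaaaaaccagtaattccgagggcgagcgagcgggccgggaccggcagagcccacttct
Mylip: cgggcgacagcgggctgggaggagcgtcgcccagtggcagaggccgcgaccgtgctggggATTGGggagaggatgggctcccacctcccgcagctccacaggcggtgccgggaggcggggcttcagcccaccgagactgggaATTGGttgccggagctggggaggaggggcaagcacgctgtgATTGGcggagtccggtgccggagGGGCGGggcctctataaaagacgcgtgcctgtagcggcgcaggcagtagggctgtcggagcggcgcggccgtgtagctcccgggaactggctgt

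Of the 5 windows, that of Hmgcs1 held the letters TCACNCCAC, beginning at position -137 from the start, with 4 CCAAT boxes and 3 GC boxes around it. Mvd held 2 CCAAT boxes and 1 GC box, Sc5d 1 CCAAT box and 4 GC boxes, Mylip 3 CCAAT boxes and 1 GC box, and Abca1 2 GC boxes and no CCAAT box. The CCAAT box was present in 12 of 13 cholesterol synthesis windows (92.3%), in 6 of 11 windows of the other members (54.5%) and in 37.9% of the 27025 windows in the table. GGGCGG was found in the same shares of the 2 gene groups, 92.3% and 54.5%, against 35.9% of all windows. TCACNCCAC was present in 1 of the 24 member windows and in 1.22% of all windows, and TCACGTGA in none of the 24 and in 1.01% of all. Searched after the expression values were known, the STAT-type letters TTCNNNGAA occurred in 1 of the 24 windows, that of Ebp (8.47% of all windows), and the C/EBP-type letters TTGCNNAA in 2, those of Nsdhl and Dhcr7 (10.8% of all). These are letter matches and not measured binding.

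Of the 30 members, 11 passed the test (adjusted p below 0.05 over all 22206 gene probe sets) in at least 1 of the 6 pairwise comparisons. The matching share of all probe sets was not counted, so the 11 is not read as many or few. Shares for each comparison are given below. Against empty vector, CSF3R_T618I raised 2 members, Pmvk and Abca1, and lowered none. CEBPA_V314VW raised 3, Hmgcs1, Abca1 and Mylip, and lowered none. Both together raised 5, Hmgcs1, Mvd, Fdps, Abca1 and Mylip, and lowered none. The map of differences from the empty vector mean shows these changes array by array.

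**Figure D1:**
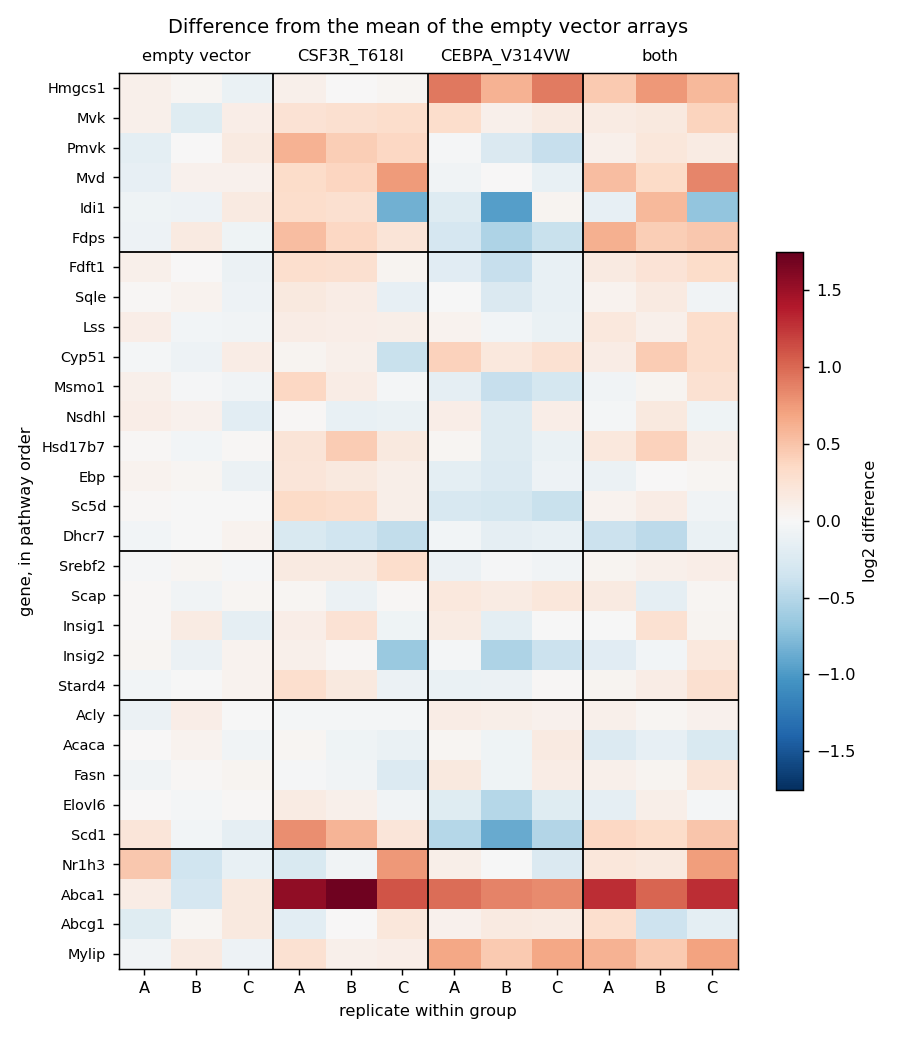
Log2 difference of each of the 30 measured members (rows, in pathway order, with black lines between mevalonate, sterol, regulator, fatty acid and efflux genes) from the mean of the 3 empty vector arrays, for each of the 12 arrays (columns, replicates A to C within each group). Abca1 was above the empty vector mean on all 9 arrays with a mutant gene, and Hmgcs1 and Mylip stand out on the 6 arrays with CEBPA_V314VW.

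The shares of all gene probe sets that passed were larger in some comparisons than in others. Between CSF3R_T618I and empty vector 3.74% of all probe sets were higher and 2.63% lower, beside 2 and 0 of the 30 members. Between CEBPA_V314VW and empty vector 1.02% were higher and 0.95% lower, beside 3 and 0 members, and between both and empty vector 3.16% were higher and 2.3% lower, beside 5 and 0. Of the 30 members 6.67% were thus higher with CSF3R_T618I, 10% with CEBPA_V314VW and 16.7% with both. The first share, 2 genes, is close to that of all probe sets, and the others rest on 3 and 5 genes. At an unadjusted p under 0.05 the members counted 9 higher and 1 lower with CSF3R_T618I, 3 higher and 5 lower with CEBPA_V314VW, and 6 higher and 2 lower with both. The shares of all probe sets at the same threshold were 8.07% higher and 9.14% lower, 4.67% and 4.75%, and 7.2% and 9.16%.

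The other comparisons set the mutant groups against each other. Between both and CSF3R_T618I 1 member, Hmgcs1, was higher and 0 were lower (0.748% and 0.851% of all probe sets; unadjusted, 3 and 1 members beside 4.3% and 5.94%). Between both and CEBPA_V314VW 5 members were higher, Mvd, Fdps, Fdft1, Sc5d and Scd1, and 0 lower (3.56% and 3.08% of all; unadjusted, 10 and 1 members beside 7.58% and 10.2%). The widest contrast was CSF3R_T618I against CEBPA_V314VW, in which 9 members were higher with CSF3R_T618I and 2 lower, while 5.42% and 5.27% of all probe sets were higher and lower. The 9 were Pmvk, Mvd, Fdps, Fdft1, Msmo1, Ebp, Sc5d, Scd1 and Abca1, and the 2 were Hmgcs1 and Mylip. These comparisons share arrays with each other, so they are not separate evidence.

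A 2-fold change was rare. Past both the test and 2-fold there was 1 member in CSF3R_T618I against empty vector (1.71% of all probe sets), 0 in CEBPA_V314VW against empty vector (0.608%), 1 in both against empty vector (1.72%), 0 in both against CSF3R_T618I (0.509%), 1 in both against CEBPA_V314VW (1.97%) and 1 in CSF3R_T618I against CEBPA_V314VW (2.66%). The gene was Abca1 in the comparisons with empty vector and Scd1 in those with CEBPA_V314VW. No member passed the test of the interaction, which asks whether the effect of CSF3R_T618I differs with and without CEBPA_V314VW, while 0.324% of all probe sets did (limma, 72 probe sets). At an unadjusted p under 0.05 the interaction counted 1 member above 0 and 1 below, beside 2.43% and 3.58% of all probe sets.

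**Figure D2:**
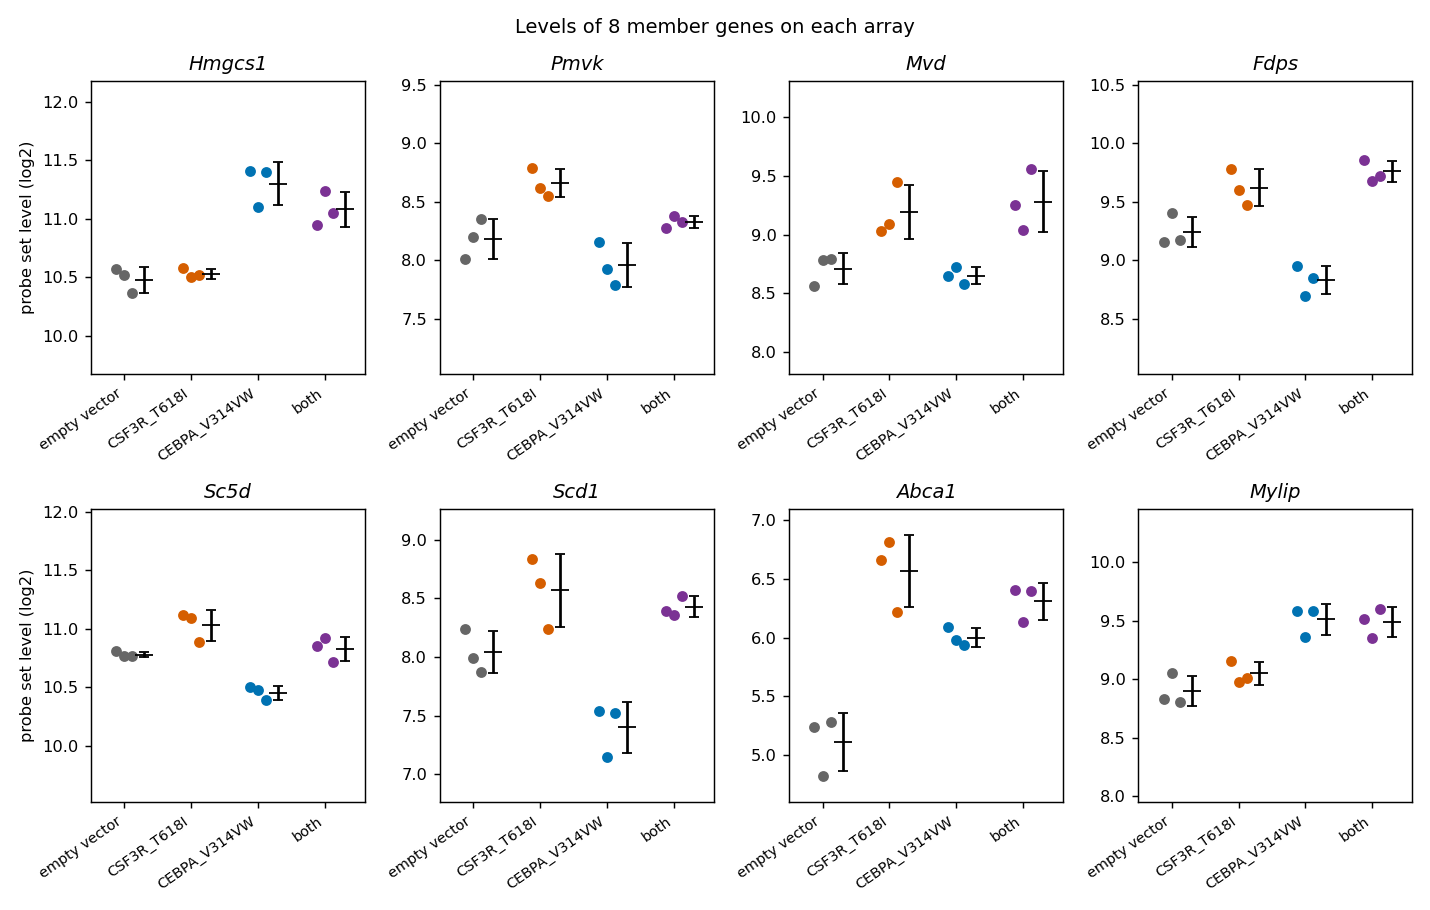
Log2 probe set level of 8 members on each array (points, replicates A to C from left to right), with the group mean and SD (n = 3) in black beside them. All panels span the same number of log2 units. Hmgcs1 and Mylip were high in the groups with CEBPA_V314VW, Pmvk, Sc5d and Scd1 were highest with CSF3R_T618I and lowest with CEBPA_V314VW, and Abca1 was lowest with empty vector.

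Hmgcs1 encodes the cytosolic synthase that makes HMG-CoA at the entry of the mevalonate pathway. Its levels were 10.57, 10.52 and 10.37 with empty vector, 10.58, 10.50 and 10.52 with CSF3R_T618I, 11.41, 11.10 and 11.40 with CEBPA_V314VW, and 10.95, 11.24 and 11.05 with both. The lowest of the 6 arrays that carried CEBPA_V314VW, 10.95, exceeded the highest of the other 6, 10.58. It rose 1.76-fold with CEBPA_V314VW (log2 change 0.82 ± 0.12 SE, adjusted p = 0.00186) and 1.51-fold with both (0.60 ± 0.12, adjusted p = 0.00769) over empty vector, and it was 1.70-fold lower with CSF3R_T618I than with CEBPA_V314VW (-0.77 ± 0.12, adjusted p = 0.000738). CSF3R_T618I against empty vector differed by 0.05 ± 0.12 (95% interval -0.21 to 0.31). The 3 passing results held under every alternative processing tried. The rise of both over CSF3R_T618I (0.55 ± 0.12, adjusted p = 0.0375) did not: it was lost when any of 10 arrays was left out (adjusted p from 0.0501 to 0.145) and without the 2 arrays that stood apart (0.159).

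The next enzymes of the pathway did not follow Hmgcs1. Mvk, mevalonate kinase, ran from 7.87 to 8.46 over the 12 arrays and passed in no comparison. Pmvk, phosphomevalonate kinase, was 8.01, 8.20 and 8.35 with empty vector, 8.79, 8.62 and 8.55 with CSF3R_T618I, 8.16, 7.93 and 7.79 with CEBPA_V314VW, and 8.28, 8.38 and 8.33 with both. Its 3 CSF3R_T618I arrays were the highest of the 12. Pmvk was 1.62-fold higher with CSF3R_T618I than with CEBPA_V314VW (0.70 ± 0.13, adjusted p = 0.00233), under every alternative that could test it. Its rise over empty vector (0.47 ± 0.13, adjusted p = 0.0412) was lost when any of 9 arrays was left out (adjusted p from 0.0509 to 0.194), and without the 2 arrays that stood apart (0.0599). Median centring, the unmoderated test, the compared groups fitted alone and a replicate block lost it too.

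Mvd encodes the decarboxylase that turns mevalonate diphosphate into isopentenyl diphosphate, the building block of the pathway. Its levels were 8.56, 8.78 and 8.79 with empty vector, 9.03, 9.09 and 9.45 with CSF3R_T618I, 8.65, 8.72 and 8.58 with CEBPA_V314VW, and 9.25, 9.04 and 9.56 with both. The 6 arrays with CSF3R_T618I lay above the 6 without it, and the highest in each of the 2 groups was replicate C, which stood apart. Mvd was higher with both than with empty vector (0.57 ± 0.15, adjusted p = 0.0436) and than with CEBPA_V314VW (0.63 ± 0.15, adjusted p = 0.0213), and higher with CSF3R_T618I than with CEBPA_V314VW (0.54 ± 0.15, adjusted p = 0.0351). CSF3R_T618I against empty vector gave 0.48 ± 0.15 (adjusted p = 0.0884) and did not pass. Without the 2 arrays that stood apart, the first fell short at 0.43 (adjusted p = 0.0626) and the third at 0.41 (0.0528). Left out singly, 9 arrays ended the first call (adjusted p from 0.0573 to 0.193), 6 the third (0.0507 to 0.128) and 4 the second, namely replicates A and C of CEBPA_V314VW and of both (0.0596 to 0.084).

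Idi1, the isomerase that follows Mvd, had the widest scatter of the synthesis genes. It was 8.75, 8.74 and 8.99 with empty vector, 9.13, 9.11 and 7.98 with CSF3R_T618I, 8.60, 7.86 and 8.87 with CEBPA_V314VW, and 8.68, 9.39 and 8.13 with both. The mean SD within groups was 0.53. Replicate C was the lowest of its group with CSF3R_T618I and with both. Replicate B of CEBPA_V314VW, which did not stand apart in background, was the lowest array of all. No comparison of Idi1 passed. Differences in Idi1 of the size seen in its neighbors were not detectable with this spread.

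Fdps makes farnesyl diphosphate, the last product before the sterol branch. It was 9.16, 9.40 and 9.17 with empty vector, 9.78, 9.60 and 9.47 with CSF3R_T618I, 8.95, 8.70 and 8.85 with CEBPA_V314VW, and 9.86, 9.68 and 9.72 with both. The 6 arrays with CSF3R_T618I were again above the 6 without it, and the 3 CEBPA_V314VW arrays were the lowest of all. Fdps was 1.90-fold higher with both than with CEBPA_V314VW (0.92 ± 0.12, adjusted p = 0.000237) and 1.73-fold higher with CSF3R_T618I than with CEBPA_V314VW (0.79 ± 0.12, adjusted p = 0.000612), under every alternative. It was also higher with both than with empty vector (0.51 ± 0.12, adjusted p = 0.021). That result missed the threshold without replicate A or C of empty vector or replicate A of both (adjusted p from 0.0868 to 0.103). The single-mutant groups differed from empty vector by 0.38 ± 0.12 (CSF3R_T618I, adjusted p = 0.0904) and -0.41 ± 0.12 (CEBPA_V314VW, adjusted p = 0.144), and neither passed. For Fdps the interaction was 0.54 ± 0.17 (adjusted p = 0.482, unadjusted 0.0066).

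In the sterol branch no gene passed against empty vector in any group. Between CSF3R_T618I and CEBPA_V314VW 4 of 10 were higher with CSF3R_T618I and 0 lower (5.42% and 5.27% of all probe sets). At an unadjusted p under 0.05 (limma) 2 of the 10 were higher and 1 lower with CSF3R_T618I than with empty vector (8.07% and 9.14% of all probe sets). The counts were 0 and 2 with CEBPA_V314VW (4.67% and 4.75%) and 0 and 1 with both (7.2% and 9.16%). Fdft1, squalene synthase, was 9.51, 9.44 and 9.33 with empty vector, 9.72, 9.71 and 9.48 with CSF3R_T618I, 9.23, 9.03 and 9.29 with CEBPA_V314VW, and 9.58, 9.67 and 9.75 with both. The CEBPA_V314VW arrays were the lowest 3. Fdft1 was higher with both than with CEBPA_V314VW (0.48 ± 0.11, adjusted p = 0.0184) and higher with CSF3R_T618I than with CEBPA_V314VW (0.45 ± 0.11, adjusted p = 0.0199). The first was lost without replicate A or B of CEBPA_V314VW or replicate B or C of both (adjusted p from 0.0502 to 0.0775), and the second without replicate A or B of CSF3R_T618I or replicate B of CEBPA_V314VW (0.073 to 0.0789). Each was also lost after median centring and with the compared groups fitted alone.

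Sc5d encodes the desaturase that acts just before the final reduction to cholesterol. Its levels were 10.81, 10.77 and 10.77 with empty vector, 11.12, 11.09 and 10.89 with CSF3R_T618I, 10.50, 10.48 and 10.39 with CEBPA_V314VW, and 10.85, 10.92 and 10.72 with both. The CSF3R_T618I and CEBPA_V314VW groups lay on either side of empty vector. Sc5d was 1.49-fold higher with CSF3R_T618I than with CEBPA_V314VW (0.58 ± 0.10, adjusted p = 0.00202), under every alternative, while the steps from empty vector, 0.25 ± 0.10 (adjusted p = 0.216) and -0.33 ± 0.10 (adjusted p = 0.192), did not pass. It was higher with both than with CEBPA_V314VW (0.37 ± 0.10, adjusted p = 0.0442), which was lost when any of 10 arrays was left out (adjusted p from 0.0525 to 0.155). That call was also lost after median centring, with the compared groups fitted alone and with a replicate block.

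Msmo1, which oxidizes the methyl groups of lanosterol products, had group means of 9.39 ± 0.20 (SD) with CSF3R_T618I and 8.95 ± 0.13 with CEBPA_V314VW, and Ebp, the sterol isomerase, had 9.79 ± 0.05 and 9.46 ± 0.08. Both were higher with CSF3R_T618I (Msmo1 0.44 ± 0.13, adjusted p = 0.046; Ebp 0.33 ± 0.10, adjusted p = 0.0432). Each result lay just under the threshold. Left out in turn, 9 arrays ended the Msmo1 call (adjusted p from 0.0558 to 0.163) and 10 the Ebp call (0.0513 to 0.128). Some of these arrays belonged to groups outside the comparison. Ebp also missed without the 2 arrays that stood apart (0.052). Each call was also lost after median centring, with the compared groups fitted alone and with a replicate block, and Msmo1 without moderation. The other 6 genes of the branch, Sqle, Lss, Cyp51, Nsdhl, Hsd17b7 and Dhcr7, passed in no comparison over all arrays. Among them Cyp51, the lanosterol demethylase, had its higher means where Hmgcs1 did, at 9.62 ± 0.11 with CEBPA_V314VW and 9.63 ± 0.16 with both, against 9.34 ± 0.11 in empty vector and 9.25 ± 0.26 with CSF3R_T618I. Dhcr7, the final reductase, had 10.14 ± 0.06, 9.79 ± 0.09, 10.03 ± 0.06 and 9.82 ± 0.18 in empty vector, CSF3R_T618I, CEBPA_V314VW and both, and its difference of -0.34 ± 0.11 between CSF3R_T618I and empty vector had an adjusted p of 0.0979. Without the 2 arrays that stood apart, Dhcr7 was lower with both than with empty vector (-0.42, adjusted p = 0.0329, against -0.32 and 0.149 with all arrays), and Hsd17b7, a sterol reductase, was higher with CSF3R_T618I than with CEBPA_V314VW (0.44, adjusted p = 0.0474, against 0.38 and 0.0596). The group means of Nsdhl spanned 0.09 log2 units.

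**Figure D3:**
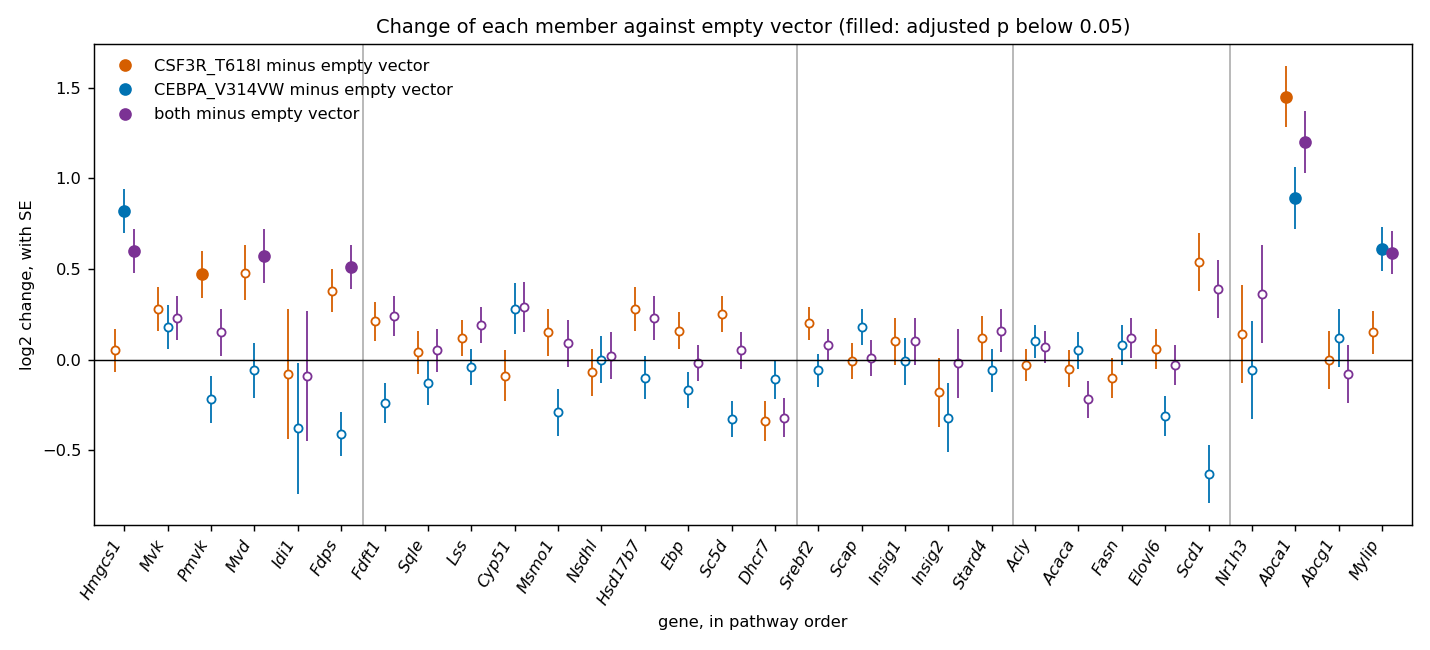
Log2 change of each member (x axis, in pathway order, with grey lines between mevalonate, sterol, regulator, fatty acid and efflux genes) in each mutant group against empty vector, with the SE of the fitted difference. Filled points have an adjusted p below 0.05. Hmgcs1 at the left is the one synthesis gene filled for CEBPA_V314VW, and Abca1 at the right is filled for all 3 comparisons, which share the empty vector arrays.

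The 5 measured members of the regulator group, Srebf2, Scap, Insig1, Insig2 and Stard4, passed in none of the 7 contrasts. Further genes that control SREBP are counted below. At an unadjusted p under 0.05 (limma) only Srebf2 differed, in CSF3R_T618I against empty vector and against CEBPA_V314VW. Srebf2, which encodes SREBP2, the main activator of the cholesterol genes, was 11.44, 11.49 and 11.44 with empty vector, 11.61, 11.61 and 11.76 with CSF3R_T618I, 11.35, 11.43 and 11.40 with CEBPA_V314VW, and 11.51, 11.54 and 11.57 with both. The CSF3R_T618I arrays were the highest 3, and that group differed from CEBPA_V314VW by 0.27 ± 0.09 (95% interval 0.07 to 0.46, adjusted p = 0.0886). Insig1, itself a known SREBP target, had group means within 0.11 log2 units of each other. Its change with CEBPA_V314VW, where Hmgcs1 rose, was -0.01 ± 0.13 (95% interval -0.29 to 0.27). Scap, the SREBP escort, and Stard4, a carrier of sterols within the cell, spanned 0.19 and 0.22 log2 units over the group means. Insig2 ran from 5.93 to 6.76 over the arrays with overlapping groups.

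Among the fatty acid genes only Scd1, the desaturase that makes oleic acid, passed. It was 8.24, 7.99 and 7.87 with empty vector, 8.84, 8.63 and 8.24 with CSF3R_T618I, 7.54, 7.15 and 7.52 with CEBPA_V314VW, and 8.39, 8.36 and 8.52 with both. The 3 CEBPA_V314VW arrays were the lowest of the 12. Scd1 was 2.25-fold higher with CSF3R_T618I than with CEBPA_V314VW (1.17 ± 0.16, adjusted p = 0.000332) and 2.03-fold higher with both than with CEBPA_V314VW (1.02 ± 0.16, adjusted p = 0.00146), and both results held under every alternative that could test them. Against empty vector the differences were 0.54 ± 0.16 with CSF3R_T618I (adjusted p = 0.0804) and -0.63 ± 0.16 with CEBPA_V314VW (adjusted p = 0.084), neither of which passed. Without the 2 arrays that stood apart both did, at 0.70 (adjusted p = 0.0218) and -0.63 (adjusted p = 0.0393). The other 4 passed in no comparison over all arrays. Acly, which makes the acetyl-CoA that feeds both pathways, had group means within 0.14 log2 units, Fasn, fatty acid synthase, within 0.22, and Acaca, acetyl-CoA carboxylase, within 0.26. Elovl6, which elongates palmitate, had its lowest mean with CEBPA_V314VW, 10.12 ± 0.16, against 10.49 ± 0.11 with CSF3R_T618I (difference 0.37 ± 0.11, adjusted p = 0.0632).

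Abca1, which exports cholesterol to apolipoprotein A-I, passed against empty vector in all 3 mutant groups. Its levels were 5.24, 4.82 and 5.28 with empty vector, 6.66, 6.82 and 6.22 with CSF3R_T618I, 6.09, 5.98 and 5.94 with CEBPA_V314VW, and 6.41, 6.13 and 6.40 with both. All 9 arrays with a mutant gene lay above the 3 without one. Abca1 rose 2.74-fold with CSF3R_T618I (1.45 ± 0.17, adjusted p = 9.66e-05), 1.85-fold with CEBPA_V314VW (0.89 ± 0.17, adjusted p = 0.0118) and 2.30-fold with both (1.20 ± 0.17, adjusted p = 0.000526). The empty vector levels lay around the background control means of 4.98 to 5.27 and were not above background, so these folds are fitted values and not exact sizes. The results for CSF3R_T618I and for both held under every alternative that could test them, and the result for CEBPA_V314VW missed without replicate B of empty vector or replicate A of CEBPA_V314VW (adjusted p of 0.0614 to 0.0658). Without moderation the result for CEBPA_V314VW missed as well. Abca1 was also higher with CSF3R_T618I than with CEBPA_V314VW (0.56 ± 0.17, adjusted p = 0.0482), which was lost when any of 10 arrays was left out (0.0516 to 0.182). Quantile normalization, median centring, the unmoderated test, the compared groups fitted alone and a replicate block lost that call too. The change with both was smaller than the sum of the changes with each mutant gene alone, with an interaction of -1.14 ± 0.24 log2 units (adjusted p = 0.0857), which did not pass. Without replicate C of CSF3R_T618I it did (-1.32, adjusted p = 0.0212), as it did without both arrays that stood apart (-1.36, adjusted p = 0.0358). The interaction includes the empty vector level at background, so no departure from additivity is read from it.

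Mylip, whose product lowers lipoprotein uptake, was 8.83, 9.05 and 8.81 with empty vector, 9.16, 8.98 and 9.01 with CSF3R_T618I, 9.58, 9.36 and 9.58 with CEBPA_V314VW, and 9.51, 9.35 and 9.60 with both. Like Hmgcs1, it was higher on all 6 arrays with CEBPA_V314VW than on the 6 without. Mylip rose 1.53-fold with CEBPA_V314VW (0.61 ± 0.12, adjusted p = 0.0126) and 1.51-fold with both (0.59 ± 0.12, adjusted p = 0.00709), and was lower with CSF3R_T618I than with CEBPA_V314VW (-0.46 ± 0.12, adjusted p = 0.0209). The result for both held under every alternative. The first was lost without replicate A or C of empty vector or of CEBPA_V314VW (adjusted p from 0.0635 to 0.0768), and the third without replicate B or C of CSF3R_T618I or replicate A or C of CEBPA_V314VW (0.0579 to 0.089) and without the 2 arrays that stood apart (0.0543). With the compared groups fitted alone the third was lost too.

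The other 2 efflux genes passed in no comparison. Abcg1, which exports cholesterol to mature HDL, ran from 7.61 to 8.26 with overlapping groups. Nr1h3, which encodes LXRα, was 6.28, 5.46 and 5.67 with empty vector, 5.54, 5.74 and 6.56 with CSF3R_T618I, 5.91, 5.79 and 5.55 with CEBPA_V314VW, and 6.00, 5.97 and 6.54 with both. Its 2 highest arrays were the ones with the highest background. A difference in Nr1h3 of the size seen for Mylip would not have been detectable here, since the 95% interval for both against CEBPA_V314VW ran from -0.16 to 1.00.

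**Figure D4:**
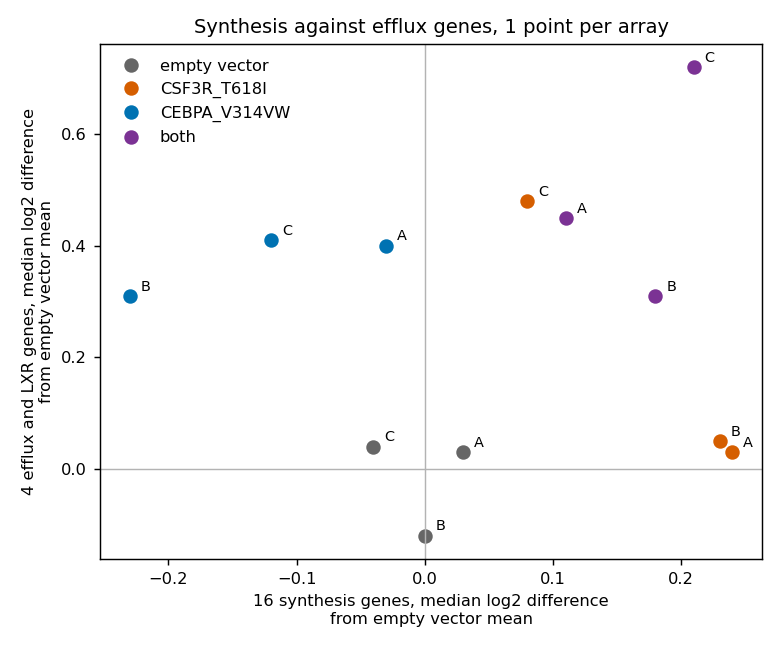
Median log2 difference from the empty vector mean over the 16 cholesterol synthesis genes (x axis) and over the 4 efflux and LXR genes (y axis), with 1 point per array, labelled by replicate. The 3 CEBPA_V314VW arrays lie above the empty vector arrays (efflux 0.31 to 0.41), 2 of them to the left and replicate A level with them (synthesis -0.23 to -0.03), the arrays with both at the upper right, and replicates A and B of CSF3R_T618I at the lower right. By the mean of the 4 efflux genes, not drawn, CSF3R_T618I (0.34 to 0.54) and CEBPA_V314VW (0.35 to 0.46) overlapped.

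The 16 synthesis genes and the 4 efflux genes were set side by side, as a description. The median difference of the synthesis genes from the empty vector mean was 0.03, 0.00 and -0.04 on the empty vector arrays, 0.24, 0.23 and 0.08 on the CSF3R_T618I arrays, -0.03, -0.23 and -0.12 on the CEBPA_V314VW arrays, and 0.11, 0.18 and 0.21 on the arrays with both. That of the efflux genes was 0.03, -0.12 and 0.04, then 0.03, 0.05 and 0.48, then 0.40, 0.31 and 0.41, and then 0.45, 0.31 and 0.72. The high efflux value of replicate C of CSF3R_T618I and of both went with Nr1h3, which was high on those 2 arrays. The synthesis medians of replicates B and C of CEBPA_V314VW lay below the empty vector arrays and that of replicate A lay among them, while their efflux medians were all above. The arrays with both had higher medians than empty vector for each group of genes. A median of 4 genes carries little of the rise of Abca1, which was largest with CSF3R_T618I. The mean efflux differences were 0.34, 0.43 and 0.54 with CSF3R_T618I and 0.46, 0.37 and 0.35 with CEBPA_V314VW. They were 0.08, -0.11 and 0.03 with empty vector and 0.60, 0.32 and 0.64 with both. By the mean the 2 single-mutant groups thus overlapped in efflux, above empty vector.

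Signs were counted with no test. With CSF3R_T618I 12 of 16 synthesis genes were above empty vector (median log2 change 0.16), with CEBPA_V314VW 3 of 16 (median -0.12) and with both 13 of 16 (median 0.17), where the medians over all gene probe sets were -0.012, -0.0024 and -0.033. The 3 positive synthesis genes with CEBPA_V314VW were Hmgcs1, the one that passed, Cyp51 and Mvk. Of the 4 efflux genes 4, 3 and 3 were above empty vector in the same comparisons, with medians of 0.15, 0.37 and 0.48. With CSF3R_T618I the 4 include Abcg1, whose change rounded to 0.00 ± 0.16 SE, and only Abca1 passed. Between CSF3R_T618I and CEBPA_V314VW 7 synthesis genes were higher, 1 was lower and 8 did not pass (median 0.31). Of the 4 efflux genes 1 was higher, Abca1, and 1 lower, Mylip. Of all probe sets 5.42% were higher and 5.27% lower in that comparison.

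Other genes of these pathways were counted from lists of their own, to be read beside the shares of all probe sets given above. Of 7 measured further synthesis genes, Aacs, which activates acetoacetate in the cytosol, rose with CSF3R_T618I (0.45 ± 0.12, adjusted p = 0.041), from 8.83, 8.62 and 8.81 to 9.24, 9.09 and 9.31. Acat1, the mitochondrial thiolase, fell with both (-0.50 ± 0.11, adjusted p = 0.0169), from 9.58, 9.49 and 9.33 to 8.94, 9.03 and 8.93. Against empty vector 1 of the 7 was higher with CSF3R_T618I, none passed with CEBPA_V314VW and 1 was lower with both. Of 10 measured genes that control SREBP, 1 passed against empty vector: Erlin2, whose product takes part in degrading proteins of the endoplasmic reticulum, fell with CSF3R_T618I (-0.51 ± 0.12, adjusted p = 0.0217), from 8.96, 8.93 and 8.90 to 8.45, 8.51 and 8.30. Between CSF3R_T618I and CEBPA_V314VW Erlin2 (-0.57) and Mbtps1, a protease that cuts SREBP (-0.36), were lower and Paqr3, a Golgi anchor of SCAP and SREBP (0.44), was higher.

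Of 13 further fatty acid genes none passed against empty vector. At an unadjusted p under 0.05 (limma) 1 was higher and 2 lower with CSF3R_T618I (8.07% and 9.14% of all probe sets). The counts were 1 and 1 with CEBPA_V314VW (4.67% and 4.75%) and 0 and 2 with both (7.2% and 9.16%). Between CSF3R_T618I and CEBPA_V314VW Fads2, a desaturase of polyunsaturated fatty acids, was higher (0.53 ± 0.12, adjusted p = 0.0108) and Gpam, which starts glycerolipid synthesis, was lower (-0.56 ± 0.11, adjusted p = 0.00468). Scd1 and Fads2 were thus both higher with CSF3R_T618I than with CEBPA_V314VW. Of 12 further LXR targets 1 passed against empty vector, Smpdl3a, a phosphodiesterase, which was 6.29, 6.36 and 6.32 with empty vector and 6.93, 6.82 and 6.95 with both (0.58 ± 0.14, adjusted p = 0.0246). Nr1d1, the clock repressor, was lower with CSF3R_T618I than with CEBPA_V314VW (-0.77 ± 0.12, adjusted p = 0.000905) and lower with both than with CEBPA_V314VW (-0.59 ± 0.12, adjusted p = 0.00866).

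Of 16 measured genes of cholesterol uptake and storage, 3 were higher than empty vector with CSF3R_T618I (3.74% of all probe sets), 1 with CEBPA_V314VW (1.02%), and 2 were higher (3.16%) and 1 lower (2.3%) with both. The lower one was Lipa, the lysosomal lipase (-0.52 ± 0.11, adjusted p = 0.0135), named after its value was seen. Nceh1, the hydrolase that frees cholesterol from its stored esters, was 9.63, 9.78 and 9.54 with empty vector, 10.42, 10.31 and 10.37 with CSF3R_T618I, 10.40, 10.44 and 10.21 with CEBPA_V314VW, and 11.30, 11.17 and 11.16 with both. The groups with 1 mutant gene overlapped, and the group with both lay above every other array. Nceh1 rose with CSF3R_T618I (0.72 ± 0.11, adjusted p = 0.000755), with CEBPA_V314VW (0.70 ± 0.11, adjusted p = 0.00255) and with both (1.56 ± 0.11, adjusted p = 1.1e-06). Lrp1, a large lipoprotein receptor, was 6.04, 5.85 and 6.51 with empty vector, 7.97, 7.69 and 7.47 with CSF3R_T618I, 6.40, 6.01 and 6.30 with CEBPA_V314VW, and 8.18, 7.66 and 7.99 with both. It rose with CSF3R_T618I (1.57 ± 0.19, adjusted p = 0.000183) and with both (1.81 ± 0.19, adjusted p = 5.99e-05). Stard5, a sterol carrier, rose with CSF3R_T618I (0.50 ± 0.09, adjusted p = 0.00553), and Scarb1, the HDL receptor, was higher with CSF3R_T618I than with CEBPA_V314VW (0.66 ± 0.10, adjusted p = 0.000692).

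Macrophages express Abca1 and Lrp1, and in bulk RNA more cells of a type and more RNA per cell cannot be told apart. Of 13 measured macrophage and monocyte markers 3 rose with CSF3R_T618I (3.74% of all probe sets were higher): Csf1r (1.33 ± 0.22, adjusted p = 0.00234), Adgre1 (1.02 ± 0.12, adjusted p = 0.000105) and Fcgr1 (1.00 ± 0.11, adjusted p = 7.35e-05). The same 3 rose with both, where Ccr2 fell (-0.97 ± 0.19, adjusted p = 0.0067). With CEBPA_V314VW, where Abca1, Mylip and Hmgcs1 rose, none of the 13 passed (1 lower and 0 higher at an unadjusted p under 0.05). The mean level of the 13 ran from 6.02 to 6.07 with empty vector, 6.21 to 6.40 with CSF3R_T618I, 5.98 to 6.16 with CEBPA_V314VW and 6.17 to 6.39 with both. Markers of other cell types also moved with CSF3R_T618I (3.74% of all probe sets were higher and 2.63% lower). Of 6 lymphoid markers 1 rose, the receptor Il7r (2.10), and none fell. Of 6 erythroid and megakaryocyte markers 1 fell, Car2 (-1.66), while 5 were above empty vector without passing. Of 8 eosinophil, basophil and mast cell markers 2 fell, the proteases Prss34 (-0.85) and Cpa3 (-0.64), while 3 were above empty vector without passing. With CEBPA_V314VW Prss34 rose (1.08) and Mcpt8 fell (-1.20), where 1.02% of all probe sets were higher and 0.95% lower. C1qa, Mertk and Mrc1 had group means no higher than 4.67 in any group, at or under the background controls. The part of macrophage-like differentiation in the Abca1 and Lrp1 results with CSF3R_T618I was not tested.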

How the data were processed

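Gene expression was measured on 12 GeneChip Clariom S Mouse arrays, 3 for each of 4 groups named by the sample titles. The deposited values are log2 probe set levels that the authors made with RMA (background correction, normalization across arrays and summarization) in Affymetrix Expression Console; its settings and the annotation build are not given in the sources used here, and no depth applies to arrays, whose number limits the precision. The study's methods tested with Transcriptome Analysis Console. No scaling was added. Of 28846 probe sets, 6640 controls were left out and 22206 tested; 19572 had 1 symbol in the platform annotation, 0 columns were unused, and the probe set with the highest mean stood for a symbol with several.

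In R 4.3.3, limma 3.58.1 fitted 1 mean per group to all 12 arrays, with 6 pairwise contrasts and the interaction. P-values were adjusted by Benjamini-Hochberg over all 22206 probe sets. Higher, lower, rose and fell mean an adjusted p below 0.05; errors are SE of a difference or SD of 3 arrays. The fit was tested on simulated data. All measured members are named, and of other pathway lists up to 4 genes each that passed, by smallest adjusted p; Lrp8 and Plin2, which also passed, are counted only. Members and lists were chosen with earlier results of these data known. Alternatives are given in the closing section.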

Additional observations from a re-analysis of the deposited data

How the results depend on the processing

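Across the alternatives none of the 27 member results that passed changed direction, and 12 passed under every alternative that could test them. Array weights, an intensity trend with robust variances, averaging a symbol's probe sets and leaving out probe sets at the background mean (5.27; added after the data were seen) kept all 27. Quantile normalization kept 24, median centring and the unmoderated test 19 each, leaving out the 2 arrays that stood apart 21, and fitting the compared groups alone, with fewer arrays, 15. The background filter at 8.68 left 6041 probe sets and 22 members, so Abca1, Scd1 and Pmvk could not be tested, and kept 19 of 19. It is a strict filter, and dim genes such as Abca1 and Nr1h3 are limited by signal over background.

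Members passing between CSF3R_T618I and empty vector numbered 2 in the main test, 4 after quantile normalization, 1 after median centring, 5 with the background filter, 6 with an intensity trend, 8 with array weights, 1 with the groups alone and 1 with a replicate block; leaving out 1 array gave 1 to 2. Between CEBPA_V314VW and empty vector the 3 became 6 with an intensity trend (3 higher and 3 lower), and 1 to 4 leaving out 1 array, the lowest without replicate A of CEBPA_V314VW. Between both and empty vector the 5 became 3 to 5 leaving out 1 array, with 3 without replicate A or C of empty vector or replicate A of both. Between both and CSF3R_T618I the 1 became 0 after median centring, without moderation, with the groups alone, with a replicate block and without the 2 arrays that stood apart, 2 with the background filter, an intensity trend or array weights, and 0 to 1 leaving out 1 array. Between both and CEBPA_V314VW the 5 became 3 after median centring, 2 with the groups alone and 2 to 5 leaving out 1 array. Between CSF3R_T618I and CEBPA_V314VW the 11 became 7 after median centring, 5 with the groups alone and 5 to 10 leaving out 1 array. For the interaction the 0 became 1, Abca1, with an intensity trend, with array weights and without the 2 arrays that stood apart, and 0 to 1 leaving out 1 array; fitting the compared groups alone is not possible there. The cause of these shifts was not tested.

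The replicate letters did not pair the arrays: same-letter arrays of different groups correlated at -0.252 to 0.169 in their deviations from the group means, 4 of 18 pairs were over 0.1, and 4 of 12 arrays correlated best with an array of their own letter. With the letter as a replicate block 21 of the 27 results passed. Over all probe sets, array weights moved the calls from 1415 to 3019 between CSF3R_T618I and empty vector, from 437 to 739 between CEBPA_V314VW and empty vector, from 355 to 579 between both and CSF3R_T618I, from 2373 to 3978 between CSF3R_T618I and CEBPA_V314VW and from 72 to 135 for the interaction. Between both and CSF3R_T618I they were 561 with an intensity trend, 149 with the groups alone and 233 without the 2 arrays that stood apart, and for the interaction 113 with an intensity trend and 33 without moderation.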
